A study of Mus musculus with 32 samples.

Results

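The 10 genes described here encode proteins that coat the lipid droplets of the cell or release fatty acids from them. They are Plin2, Plin4 and Plin5 of the perilipin family, Cidea, Cideb and Cidec of the CIDE family, the lipase genes Pnpla2, Pnpla3 and Mgll, and the lipase inhibitor gene G0s2. They were taken by name from the 20076 genes of the count table, with earlier results of these data known. Liver RNA of male C57BL/6J mice was sequenced from the 3′ end of polyadenylated transcripts, and reads were counted per gene.

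The 32 mice formed 8 groups of 4. MCAD-KO mice are Acadm-knockout animals, which lack the gene for medium-chain acyl-CoA dehydrogenase, an enzyme of mitochondrial fatty acid oxidation. They were compared with wild-type (WT) littermates. Each genotype received a low-fat or a high-fat diet for 6 weeks, and was studied either fed or after a fast of 16 h. The labels give ages of 7.5 to 16 without a unit. Replicate 4 of the MCAD-KO high-fat fasted group and replicate 2 of the WT low-fat fed group were left out, so that 30 mice remained, with 3 mice in each of these 2 groups and 4 in the other six.

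Liver cells store triglyceride in droplets whose surface carries perilipins, which limit the access of lipases, while CIDE proteins promote exchange of lipid between droplets and their growth. Adipose triglyceride lipase, the product of Pnpla2, removes the first fatty acid from a triglyceride and is inhibited by the G0S2 protein, and monoacylglycerol lipase, the product of Mgll, removes the last. During a fast the liver takes up fatty acids from adipose tissue, and several of these genes are known targets of the fatty acid receptor PPARα, whereas Pnpla3 is known as a target of the insulin-dependent factor SREBP-1c.

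The total count per mouse lay between 2031053 and 4292200 (median 2899001). Levels are given as CPM, the count of a gene relative to the scaled total of its library on a common scale, and all 10 genes were among the 11566 genes with enough counts to be tested. Acadm itself lay between 8.95 and 37.0 CPM in the 15 MCAD-KO mice and between 189 and 746 CPM in the 15 WT mice. Summed hepatocyte markers were high in all 30 mice (41980.2 to 69118.8 CPM). Markers of other tissues were high in single mice: acinar pancreas markers reached 17650.6 CPM in WT high-fat fasted replicate 2 (median over 30 mice 23.25 CPM) and 2617.5 CPM in MCAD-KO high-fat fed replicate 1, and adrenal cortex markers reached 289 CPM in MCAD-KO low-fat fasted replicate 3 (median 1.315 CPM). Skeletal muscle markers were 988 CPM in MCAD-KO high-fat fed replicate 1, 533 CPM in WT high-fat fed replicate 4 and 207 CPM in WT high-fat fasted replicate 4 (median 1.225 CPM), and heart markers were 370, 225 and 113 CPM in the same mice (median 13.2 CPM). The mouse left out of the MCAD-KO high-fat fasted group had 37688 CPM of heart markers. The mouse left out of the WT low-fat fed group had 34015.8 CPM of hepatocyte markers, below all 30 mice. Its stellate cell markers were 851 CPM, against 435 to 656 CPM in the 30 mice, and its other marker sums lay within their ranges. In whole liver, fewer cells of a type and less RNA per cell cannot be told apart.

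Upstream sequences of 4 genes are shown because these are the genes whose fasting effect differed between the diets, as described below. They are the bases before the RefSeq start (build GRCm38.p6), without any base that lies inside the GENCODE gene, written 5′ to 3′ on the strand of the gene. Capitals mark the motifs that were searched on both strands and found.
Plin5 (chr17:56117597-56117798, minus strand): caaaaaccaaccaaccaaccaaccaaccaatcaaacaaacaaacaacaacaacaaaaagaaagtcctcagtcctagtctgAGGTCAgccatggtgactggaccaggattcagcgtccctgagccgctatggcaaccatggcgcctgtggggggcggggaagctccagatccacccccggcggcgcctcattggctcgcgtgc
Cidec (chr6:113435761-113436010, minus strand): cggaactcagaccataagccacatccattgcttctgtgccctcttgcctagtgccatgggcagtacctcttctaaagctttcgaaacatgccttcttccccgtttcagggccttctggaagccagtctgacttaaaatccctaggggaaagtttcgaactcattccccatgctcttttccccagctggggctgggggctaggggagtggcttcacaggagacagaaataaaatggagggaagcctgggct
Pnpla2 (chr7:141454938-141455187, plus strand): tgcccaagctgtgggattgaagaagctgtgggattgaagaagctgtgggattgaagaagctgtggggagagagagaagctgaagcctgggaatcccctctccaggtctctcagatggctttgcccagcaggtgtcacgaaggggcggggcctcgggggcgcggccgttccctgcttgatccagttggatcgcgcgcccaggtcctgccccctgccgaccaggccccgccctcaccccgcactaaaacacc
Mgll (chr6:88724162-88724411, plus strand): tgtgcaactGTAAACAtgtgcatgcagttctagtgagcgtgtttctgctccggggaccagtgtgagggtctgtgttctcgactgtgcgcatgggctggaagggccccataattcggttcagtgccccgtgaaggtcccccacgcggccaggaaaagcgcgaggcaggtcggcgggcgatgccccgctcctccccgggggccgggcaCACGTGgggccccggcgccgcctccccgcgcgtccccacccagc

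The nuclear receptor half-site AGGTCA was found 170 bases before the start of Plin5, and on the other strand 218 bases before the start of Plin2. It occurred in 14.0% of 32851 such windows of at most 250 bases. The pair of half-sites AGGTCANAGGTCA, the usual form of a PPAR response element, was found in none of 9 windows of these genes and in 0.0335% of all windows. In the Mgll window the FoxO motif TGTTTAC lay on the other strand 241 bases before the start. The E-box CACGTG, which reads the same on both strands, lay 44 bases before it. These motifs occurred in 3.17% and 6.02% of all windows. Exons of Gm26588, on the opposite strand, overlap exons of Mgll. Neither the Cidec nor the Pnpla2 window held any of the motifs searched. The window of Cidea was not used here.

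Fasting changed most of these genes. Averaged over the 2 genotypes and 2 diets, 7 of the 10 genes rose, Pnpla3 fell, and Cidea and Cideb did not pass the test (edgeR quasi-likelihood test, Benjamini-Hochberg adjusted p over all genes below 0.05). Of all genes tested, 18.9% passed in either direction, 9.77% upwards and 9.14% downwards. The libraries were sequenced on 2 lanes. Within lane 8, 8 of the 10 genes were called, and 1643 of all genes. Within lane 7, which held no used mouse of the WT low-fat fed group, 4 were called (Plin4, Plin5, Pnpla2 and Mgll), and 376 of all genes. The fit of all 30 mice called 2187 of all genes. The median log2 fold change of the 10 genes was 1.35, against -0.0022 for all genes tested.

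**Figure D1:**
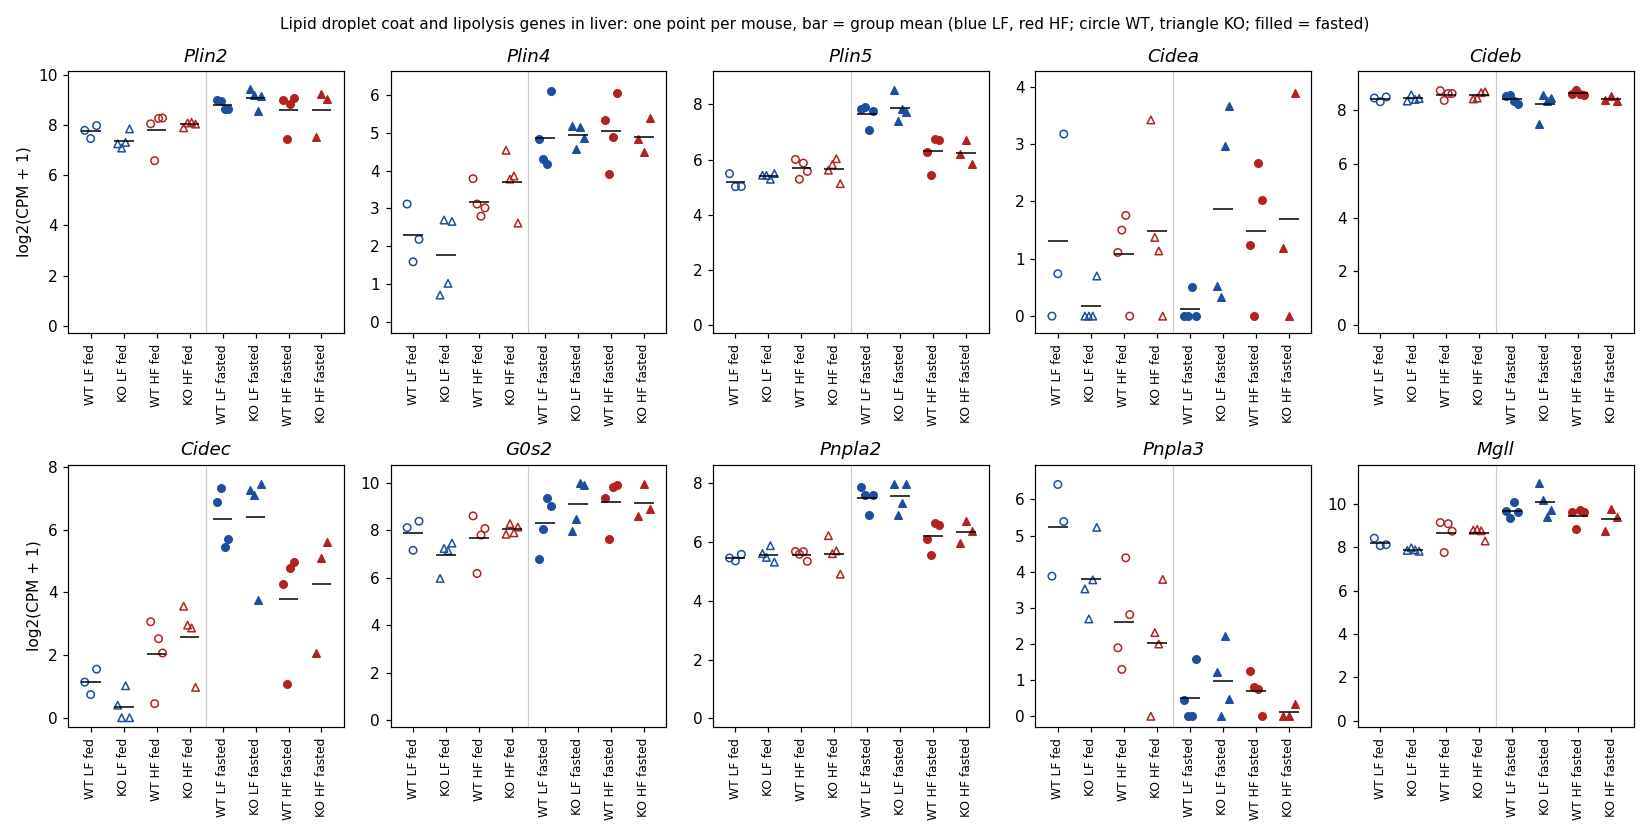
Level of each gene in each mouse as log2(CPM + 1), with fed groups to the left and fasted groups to the right of the grey line. Points are mice and bars are group means; circles stand for WT, triangles for MCAD-KO (KO), blue for the low-fat diet (LF), red for the high-fat diet (HF) and filled symbols for fasted mice. Plin5 and Pnpla2 of the low-fat fasted mice lie above those of all other groups, and the group means of Pnpla3 are lowest in the fasted groups.

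Of the perilipin genes, Plin5 (ENSMUSG00000011305, chr17:56111601-56117596, minus strand, GRCm38) encodes the coat protein of oxidative tissues, which places droplets against mitochondria. On the low-fat diet, fed WT mice had 43.9, 31.4 and 31.5 CPM and fasted WT mice 226, 239, 133 and 216 CPM. Fed MCAD-KO mice had 42.2, 42.0, 38.0 and 44.0 CPM, and fasted MCAD-KO mice 370, 166, 227 and 212 CPM. Every fasted mouse on the low-fat diet was thus above every fed mouse, in both genotypes. The log2 fold change was 2.51 ± 0.30 (SE) in WT (5.70-fold, adjusted p = 1.1e-06) and 2.55 ± 0.27 in MCAD-KO mice (5.85-fold, adjusted p = 6.5e-08).

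Plin5 was also measured after the same fast on the high-fat diet. Fed WT mice had 63.2, 38.0, 57.6 and 46.5 CPM and fasted WT mice 76.3, 42.7, 107 and 103 CPM. Fed MCAD-KO mice had 48.0, 55.4, 64.4 and 33.9 CPM, and the 3 fasted MCAD-KO mice 73.3, 103 and 56.4 CPM. In both genotypes the ranges of fed and fasted mice overlapped. The log2 fold changes of 0.69 ± 0.26 in WT and 0.62 ± 0.28 in MCAD-KO mice did not pass the test (adjusted p = 0.33 and 0.58). Among fasted mice, Plin5 was 59.4% lower on the high-fat than on the low-fat diet in WT (adjusted p = 0.0051) and 68.2% lower in MCAD-KO mice (adjusted p = 0.0013), with ranges that did not overlap in either genotype, as for 7.25% of all genes in WT and 9.35% in MCAD-KO mice.

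Plin2 (ENSMUSG00000028494, chr4:86648386-86670060, minus strand) encodes the perilipin found on droplets of nearly every cell and the main one of hepatocytes. Fed low-fat mice ranged from 176 to 252 CPM in WT and from 135 to 230 CPM in MCAD-KO, and fasted low-fat mice from 394 to 513 CPM and from 378 to 689 CPM. Fasted and fed mice on the low-fat diet did not overlap, but only the MCAD-KO difference passed the test (1.72 ± 0.36, adjusted p = 0.0015, against 1.06 ± 0.39, adjusted p = 0.10 in WT). The WT difference was called when WT high-fat fed replicate 2 (adjusted p = 0.042), WT high-fat fasted replicate 2 (0.047) or MCAD-KO high-fat fasted replicate 1 (0.048) was left out, and by DESeq2 (0.024). The difference between the genotypes in the fasting effect was not called (fasting by genotype 0.32 ± 0.36, adjusted p = 0.99). On the high-fat diet each fasted group held 1 mouse at the level of fed mice: WT replicate 2 had 172 CPM beside 508, 460 and 547 CPM, and MCAD-KO replicate 1 had 184 CPM beside 612 and 533 CPM. Averaged over genotype and diet, the fasting effect was 1.08 ± 0.18 (2.12-fold, adjusted p = 8.7e-05).

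Plin4 (ENSMUSG00000002831, chr17:56100591-56109803, minus strand), the neighbour of Plin5 on the chromosome, encodes a perilipin best known from adipocytes and muscle. It was low in fed mice, at 2.01 to 7.67 CPM in WT and 0.64 to 5.47 CPM in MCAD-KO mice on the low-fat diet, and at 5.94 to 12.8 CPM and 5.12 to 22.2 CPM on the high-fat diet. Fasted groups held 17.2 to 67.9, 22.6 to 35.2, 14.1 to 64.9 and 21.4 to 41.0 CPM in the same order. Fed and fasted ranges were apart in 3 of the 4 genotype and diet combinations, and overlapped in MCAD-KO mice on the high-fat diet. The average fasting effect was 2.36 ± 0.29 (adjusted p = 1.1e-06). In WT mice on the high-fat diet the effect of 2.14 ± 0.54 missed the threshold (adjusted p = 0.074), and passed it without WT high-fat fasted replicate 2 (0.018) or WT low-fat fasted replicate 4 (0.033). Of the 3 mice with the highest skeletal muscle markers, MCAD-KO high-fat fed replicate 1 (22.2 CPM) and WT high-fat fasted replicate 4 (64.9 CPM) had the highest Plin4 of their groups, and WT high-fat fed replicate 4 had 7.09 CPM; the part of muscle was not tested. Exons of Plin4 overlap those of Hdgfl2 on the opposite strand, and the strand setting of the counting is not given in the sources used here, so that reads of the 2 genes may not be separated.

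Among the CIDE genes, Cidec (ENSMUSG00000030278, chr6:113424634-113435760, minus strand), whose protein enlarges droplets by lipid transfer, rose most. In fed low-fat mice it was near the limit of detection, with 1.2, 0.67 and 1.93 CPM in WT and 0.32, 0, 1.03 and 0 CPM in MCAD-KO mice. After the fast, low-fat WT mice had 117, 162, 43.0 and 51.0 CPM and MCAD-KO mice 155, 136, 12.6 and 176 CPM. Fed and fasted mice were far apart in both genotypes, and MCAD-KO replicate 3 was the lowest fasted mouse. From the summed counts of each group, fasted exceeded fed mice 70.3-fold in WT (95% interval 40.9 to 133, 1021 against 13 counts) and 371-fold in MCAD-KO mice (145 to 1364.5, 1357 against 4 counts), where the intervals cover counting error only. Both passed the test (adjusted p = 0.0012 and 6.9e-05), but not with limma voom (5.91, adjusted p = 0.11, and 7.88, adjusted p = 0.12). The WT value also rests on the fed mouse that was left out, which had 102 counts of Cidec (32.1 CPM): with it the log2 fold change was 3.40 instead of 6.15 (31 mice, adjusted p = 0.029), and with all 32 mice 3.39 (adjusted p = 0.065).

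With high-fat feeding, Cidec was 7.37, 0.37, 4.75 and 3.19 CPM in fed WT mice and 18.4, 1.11, 26.7 and 30.4 CPM in fasted WT mice. In MCAD-KO mice the values were 10.8, 6.77, 6.29 and 0.96 CPM fed, and 3.21, 33.3 and 48.1 CPM fasted. Most fasted mice were above all fed mice, but WT replicate 2 and MCAD-KO replicate 1 were not. The log2 fold changes of 2.29 ± 0.92 and 2.20 ± 0.89 did not pass the test (adjusted p = 0.40 and 0.50).

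Cideb (ENSMUSG00000022219, chr14:55754050-55758458, minus strand), the CIDE member of hepatocytes with a role in loading lipid onto lipoproteins, was not called in any comparison. Group means lay between 306 and 392 CPM, with single mice from 177 to 432 CPM. The average fasting effect was -0.07 ± 0.08 (adjusted p = 0.65). Its exons overlap those of Nop9 on the opposite strand.

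Cidea (ENSMUSG00000024526), the CIDE member of brown adipose tissue, was barely counted, with 218 counts over 30 mice and no count in 11 of them. The average fasting effect of 0.40 ± 1.31 did not pass the test (adjusted p = 0.88). At least 10 counts were found in 6 mice of 5 groups, at 5.34 to 13.8 CPM. Summed adipose markers were 82.0 to 186 CPM in these 6 mice, against a median of 35.35 CPM over all 30, and adrenal cortex markers were 39.5 to 289 CPM in 4 of them and 2.57 and 5.67 CPM in the other two. WT low-fat fasted replicate 4 had 82.3 CPM of adipose markers and no count of Cidea. Of the 8 adipose markers, Lep was at 0 in 29 mice, Plin1 in 22 and Adipoq in 15, whereas Fabp4 was counted in every mouse. The part of tissue attached to the liver in the level of Cidea was not tested.

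Of the lipase genes, Pnpla2 (ENSMUSG00000025509, chr7:141455198-141460743, plus strand) encodes the first lipase of triglyceride breakdown. On the low-fat diet fed WT mice had 43.1, 40.1 and 47.0 CPM and fasted WT mice 232, 194, 121 and 194 CPM. The MCAD-KO mice had 47.9, 43.7, 57.9 and 39.0 CPM fed and 254, 120, 162 and 252 CPM fasted. Again no fasted mouse on the low-fat diet overlapped with the fed mice, and the log2 fold changes were 2.09 ± 0.29 in WT (4.27-fold, adjusted p = 9.97e-06) and 2.06 ± 0.26 in MCAD-KO mice (4.17-fold, adjusted p = 1.3e-06).

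On the high-fat diet Pnpla2 was 50.4, 47.1, 50.2 and 39.7 CPM in fed WT mice and 68.6, 46.0, 98.5 and 95.3 CPM in fasted WT mice. It was 73.7, 47.8, 51.2 and 29.1 CPM in fed and 61.4, 104 and 81.8 CPM in fasted MCAD-KO mice. The ranges overlapped in both genotypes, and the fasting effects of 0.72 ± 0.26 and 0.71 ± 0.27 were not called (adjusted p = 0.27 and 0.42). Fasted mice on the high-fat diet had 58.2% less Pnpla2 RNA than those on the low-fat diet in WT (adjusted p = 0.0059), and 58.1% less in MCAD-KO mice (adjusted p = 0.014), without overlap of the ranges.

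G0s2 (ENSMUSG00000009633, chr1:193272161-193273217, minus strand) encodes the inhibitor of the Pnpla2 product. It was 277, 142 and 334 CPM in fed WT mice and 109, 267, 654 and 520 CPM in fasted WT mice on the low-fat diet. In MCAD-KO mice on that diet it was 62.0, 150, 141 and 176 CPM fed and 250, 357, 1026.6 and 972 CPM fasted. The WT ranges overlapped and the MCAD-KO ranges did not (0.63 ± 0.63, adjusted p = 0.67, and 2.30 ± 0.61, adjusted p = 0.012). The 2 highest MCAD-KO values belong to replicates 3 and 4, the mice with 289 and 125 CPM of adrenal cortex markers. Without the 4 mice above 20 CPM of these markers the MCAD-KO low-fat effect was 1.2 (adjusted p = 0.30); the part of attached tissue was not tested.

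On the high-fat diet the fasted mice had 655, 196, 917 and 977 CPM of G0s2 in WT and 385, 981 and 483 CPM in MCAD-KO, and the fed mice 71.6 to 391 CPM and 228 to 311 CPM. All fasted MCAD-KO mice were above the fed ones, and in WT only replicate 2 fell into the fed range. Neither effect was called (1.52 ± 0.59, adjusted p = 0.37, and 1.22 ± 0.62, adjusted p = 0.69), while the average over all 4 combinations passed the test (1.42 ± 0.31, adjusted p = 0.0016).

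Pnpla3 (ENSMUSG00000041653, chr15:84167837-84187236, plus strand) encodes a droplet protein related to the Pnpla2 product. It was the only gene of the 10 that fell on fasting. Fed WT mice on the low-fat diet had 13.7, 84.3 and 40.9 CPM, and fed MCAD-KO mice 10.5, 5.47, 12.7 and 36.5 CPM. Fed mice on the high-fat diet had 2.72, 1.46, 19.9 and 6.03 CPM in WT and 0, 3.98, 3 and 12.8 CPM in MCAD-KO. In the fasted mice of all groups it was at most 3.68 CPM, and at 0 in 6 of 15.

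From summed counts, fed exceeded fasted mice in Pnpla3 54.1-fold in WT on the low-fat diet (95% counting interval 28.2 to 119) and 16.6-fold in MCAD-KO mice on the low-fat diet (9.09 to 33.8). The ratio was 10.9 in WT on the high-fat diet (5.70 to 23.5), and 49.4 in MCAD-KO on the high-fat diet (8.54 to 1983.6, from 60 counts against 1). Only the 2 low-fat comparisons passed the test (adjusted p = 0.0012 and 0.019), and the fitted fold change of a gene with so few counts depends on the prior count. The MCAD-KO low-fat effect was no longer called without fasted replicate 2 (adjusted p = 0.063), fasted replicate 4 (0.058) or fed replicate 4 (0.079). The lower mean of fed mice on the high-fat diet was not called in either genotype (-2.57 ± 0.86, adjusted p = 0.69 in WT, and -1.71 ± 0.86, adjusted p = 0.70 in MCAD-KO).

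Mgll (ENSMUSG00000033174, chr6:88724412-88828360, plus strand) rose with fasting on the low-fat diet from 341, 268 and 276 to 805, 647, 1069.4 and 799 CPM in WT. In MCAD-KO mice it rose from 230, 250, 234 and 224 to 2014.3, 1170.5, 673 and 838 CPM. No fed and fasted values overlapped, and MCAD-KO replicate 1 was the highest of all mice. The log2 fold changes were 1.49 ± 0.32 (adjusted p = 0.0023) and 2.32 ± 0.30 (adjusted p = 2.4e-06). On the high-fat diet Mgll was 562, 215, 542 and 426 CPM fed and 788, 458, 840 and 784 CPM fasted in WT, and 441, 452, 432 and 311 CPM fed and 435, 855 and 672 CPM fasted in MCAD-KO. Ranges overlapped in both genotypes and neither effect was called (adjusted p = 0.36 and 0.59). Exons of Mgll overlap the antisense gene Gm26588.

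By combination, the test called 6 of the 10 genes in WT mice on the low-fat diet, where 7.54% of all genes were called, and 8 of 10 in MCAD-KO mice on the low-fat diet, where 13.8% were. None of the 10 was called in WT or in MCAD-KO mice on the high-fat diet, where 0.424% and 0.527% of all genes were. At an unadjusted p below 0.05 (edgeR) these shares were 9.19% and 7.53%. Of the 10 genes, all but Cidea and Cideb passed that looser cut in WT mice. In MCAD-KO mice Plin4, Plin5, Cidec, Pnpla2, Pnpla3 and Mgll did. In both genotypes Pnpla3 was lower in fasted mice, and the others that passed were higher. With adjusted p, DESeq2 called 1 of the 10 (Plin4) in WT and 0 in MCAD-KO mice on the high-fat diet. In the ranges, 7 genes did not overlap between fed and fasted mice in WT on the low-fat diet (20.1% of all genes), 8 in MCAD-KO on the low-fat diet (13.7%), 2 in WT on the high-fat diet (Plin4 and Pnpla3, against 6.03%) and 1 in MCAD-KO on the high-fat diet (G0s2, against 10.6%). Without WT high-fat fasted replicate 2 and MCAD-KO high-fat fed replicate 1, the mice with acinar pancreas markers, Plin4 (2.40, adjusted p = 0.015) and Pnpla2 (0.90, adjusted p = 0.046) were called in WT mice on the high-fat diet.

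**Figure D2:**
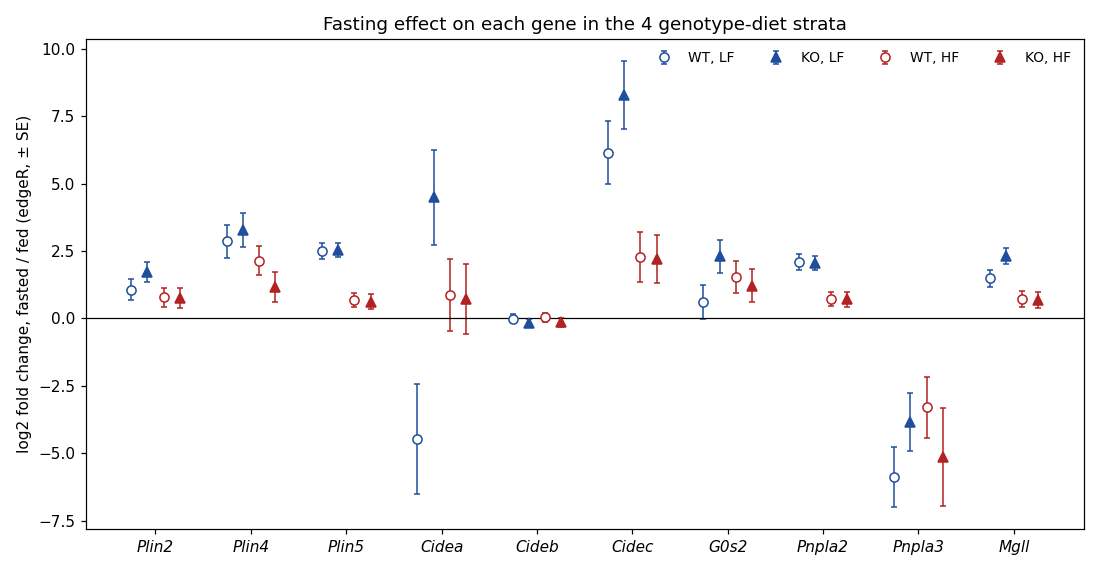
Log2 fold change of fasted over fed mice for each gene in the 4 combinations of genotype and diet, from edgeR, with bars of 1 SE. Blue marks the low-fat diet (LF), red the high-fat diet (HF), circles WT and triangles MCAD-KO (KO). For Plin2, Plin4, Plin5, Cidec, Pnpla2 and Mgll both red symbols lie closer to 0 than both blue ones. The difference between the diets was called for Plin5, Cidec, Pnpla2 and Mgll, and not for Plin2 and Plin4. For Cideb all 4 lie near 0.

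Whether the diet changed the response to fasting was tested as the fasting effect on the high-fat minus that on the low-fat diet. The difference was negative and called for 4 genes, Plin5, Cidec, Pnpla2 and Mgll. It was called for 2.46% of all genes (1.2% downwards). The difference was -1.88 ± 0.27 for Plin5 (adjusted p = 1.04e-04), -1.36 ± 0.27 for Pnpla2 (adjusted p = 0.0041), -1.21 ± 0.30 for Mgll (adjusted p = 0.024) and -4.97 ± 1.19 for Cidec (adjusted p = 0.025). These genes span both sides of the droplet, with 1 coat gene, 1 gene of droplet growth and 2 lipase genes.

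The calls of Plin5 and Pnpla2 held when single mice were left out. Mgll missed the threshold without MCAD-KO high-fat fasted replicate 1 (adjusted p = 0.056) and without WT low-fat fed replicate 3 (0.055), and Cidec without WT high-fat fed replicate 1 (0.053) and without WT low-fat fed replicate 3 (0.054). Without the 2 mice with acinar pancreas markers only Plin5 (-1.78) and Pnpla2 (-1.15) were called, with Cidec at an adjusted p of 0.05 and Mgll at 0.054. Without the 4 mice with adrenal cortex markers all 4 genes were called. Cidec was not called with limma voom (-4.83, adjusted p = 0.32). With all 32 mice Plin5 remained called (-1.70, adjusted p = 0.0080), but not Pnpla2 (-0.77, adjusted p = 0.47), Cidec (-3.76, adjusted p = 0.22) or Mgll (-1.36, adjusted p = 0.081). The 32 include the left-out MCAD-KO high-fat fasted replicate 4, with 37688 CPM of heart markers and 421 CPM of Pnpla2. Its part in the lost calls was not tested.

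For Plin4 (-1.42 ± 0.58, adjusted p = 0.26), Plin2 (-0.62 ± 0.36, adjusted p = 0.51) and G0s2 (-0.09 ± 0.60, adjusted p = 0.98) the difference between diets was not called. The 95% intervals were -2.56 to -0.27 for Plin4, -1.33 to 0.09 for Plin2 and -1.27 to 1.09 for G0s2, so that a difference of about the size seen for Mgll lies within all of them.

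Averaged over genotype and feeding state, the high-fat diet lowered 2 of the 10 genes, Plin5 (-0.54 ± 0.13, adjusted p = 0.019) and Pnpla2 (-0.58 ± 0.13, adjusted p = 0.0097), where 3.49% of all genes were called (1.24% downwards). Both were lower in fasted mice, as given above. In fed mice none of the 10 genes was called, with Plin5 at 0.52 ± 0.29 in WT and 0.28 ± 0.26 in MCAD-KO mice, and Pnpla2 at 0.11 ± 0.28 and 0.10 ± 0.26. The share of all genes called was 0.0778% in fed WT and 0.00865% in fed MCAD-KO mice, against 1.12% and 1.68% in fasted mice. At an unadjusted p below 0.05 (edgeR) it was 5.22% and 7.26% in fed mice. Plin4 (2.12), Mgll (0.80), Cidec (4.004) and Cidea (3.9) passed that cut in fed MCAD-KO mice, all higher on the high-fat diet. Their unadjusted p was 0.0026, 0.0086, 0.020 and 0.039. In fed WT mice only Pnpla3 passed it, and was lower (-2.57, unadjusted p = 0.0066). For Mgll the diet effect in WT was 0.56 fed and -0.21 fasted, and in MCAD-KO mice 0.80 and -0.84. For Cidec it was 1.60 and -2.26 in WT, and 4.004 and -2.085 in MCAD-KO mice. None was called. Fed MCAD-KO mice on the high-fat diet did lie above those on the low-fat diet without overlap for Plin2 (1.55-fold in the means), G0s2 (2.01-fold) and Mgll (1.74-fold), where 5.74% of all genes did not overlap; in fed WT mice none of the 10 genes was apart between the diets, against 8.33% of all genes. Without WT low-fat fed replicate 1 the average effect of diet on Plin5 was no longer called (adjusted p = 0.051). With all 32 mice, which include the left-out sample with high heart markers, neither Plin5 nor Pnpla2 was called. With 31 mice, where only that sample was left out, both were called (edgeR, Plin5 -0.534, adjusted p = 0.0147, and Pnpla2 -0.621, adjusted p = 0.00604). Plin4 was called as higher on the high-fat diet only without WT low-fat fasted replicate 4 (adjusted p = 0.040).

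No difference between the genotypes was called in these genes. The MCAD-KO to WT difference was called for 0 of 10 genes on average and in each of the 4 combinations of diet and feeding state, by edgeR, DESeq2 and limma voom on average, and for 0.00865% of all genes (2.90% at an unadjusted p below 0.05). For the better counted genes the average log2 difference was small with a narrow interval, at 0.03 for Plin2 (-0.33 to 0.38), 0.09 for Plin5 (-0.17 to 0.35), -0.09 for Cideb (-0.26 to 0.07), 0.10 for Pnpla2 (-0.16 to 0.36) and -0.01 for Mgll (-0.30 to 0.27). The intervals were wider for G0s2 (-0.64 to 0.54), Plin4 (-0.66 to 0.48), Cidec (-0.95 to 0.86) and Pnpla3 (-2.54 to 0.53). Within single combinations the intervals were wider than those of the averages, and some averages joined differences of opposite sign. Mgll differed by -0.33 (-0.93 to 0.26) in low-fat fed and by 0.50 (-0.05 to 1.05) in low-fat fasted mice. In the same groups Plin2 differed by -0.36 and 0.31, and G0s2 by -0.93 and 0.75. Whether fasting or diet acted differently in the 2 genotypes was called for 0 of 10 genes and for 0 of all genes (4.95% and 3.43% at an unadjusted p below 0.05).

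The ranges of MCAD-KO and WT mice were apart for Mgll in low-fat fed mice, with all 4 MCAD-KO mice (224 to 250 CPM) below the 3 WT mice (268 to 341 CPM), where 6.69% of all genes were apart. They were also apart for Cideb in high-fat fasted mice, with MCAD-KO (325 to 363 CPM) below WT mice (372 to 432 CPM), where 5.28% of all genes were. Neither difference was called. In low-fat fasted and high-fat fed mice none of the 10 genes was apart, against 2.13% and 2.68% of all genes.

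G0s2 was set against Pnpla2 within each mouse, because the one protein inhibits the other. The log2 ratio of the levels had group means of 2.42 ± 0.54 (SD) in WT and 1.38 ± 0.77 in MCAD-KO low-fat fed mice, and 2.10 ± 1.06 and 2.43 ± 0.69 in high-fat fed mice. In fasted mice it was 0.80 ± 1.49 and 1.54 ± 1.14 on the low-fat diet, and 2.96 ± 0.60 and 2.80 ± 0.37 on the high-fat diet. Fasted low-fat mice had the widest spread, from -1.09 to 2.66, and fasted high-fat mice lay between 2.06 and 3.34.

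The fasted to fed difference in this ratio was -0.06 and did not pass the test (permutation within the 4 combinations, two-sided p = 0.88). Within fasted mice it was 1.71 higher on the high-fat diet (two-sided permutation p = 0.0052), and within fed mice 0.36 higher (p = 0.43); these 2 comparisons were chosen after the values had been seen. With all 32 mice the difference in fasted mice was 0.96 (permutation p = 0.33). The 32 include the left-out MCAD-KO high-fat fasted replicate 4 with its heart markers, at 45.4 CPM of G0s2 and 421 CPM of Pnpla2. The numerator was not called between the diets in fasted mice (G0s2 0.83 ± 0.58 in WT and -0.08 ± 0.62 in MCAD-KO), whereas Pnpla2 was lower in both genotypes.

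Within groups, several of the 10 genes varied together from mouse to mouse. Of the 45 pairs, 5 were correlated after the group means had been subtracted, all positively (permutation within groups, adjusted p over the pairs below 0.05, n = 30). How often pairs of other genes were correlated in this way was not tested, so the count cannot be called particular to these genes. Plin2 and Cidec had r = 0.79 (p = 0.0012, adjusted p = 0.031, Spearman rho = 0.67, permutation p = 0.0017). Plin5 and Pnpla2 had r = 0.70 (permutation p = 0.0014, adjusted p = 0.031, rho = 0.60, p = 0.0045). Cidec was also correlated with Pnpla2 (r = 0.68, rho = 0.72, permutation p = 0.0021 and 9e-05), and Mgll with Plin2 (r = 0.72, rho = 0.56, p = 0.0037 and 0.011) and with Cidec (r = 0.67, rho = 0.53, p = 0.0029 and 0.014).

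By rank correlation only 2 of these pairs passed after adjustment (Plin2 with Cidec, 0.038, and Cidec with Pnpla2, 0.0041). Without the 2 mice farthest from the median of the first gene, r of the 5 pairs was 0.72 for Plin2 and Cidec, 0.61 for Plin5 and Pnpla2, 0.64 for Cidec and Pnpla2, 0.56 for Plin2 and Mgll, and 0.55 for Cidec and Mgll. G0s2 was in none of the called pairs, and with Pnpla2 its r was 0.11 (rho = 0.14, permutation p = 0.63 and 0.53). The 2 values of a point come from the same library and share its depth. Several groups held a mouse that was lowest in many of the genes. Plin2, Cidec, G0s2 and Mgll were all lowest of their group in WT low-fat fed replicate 3, WT high-fat fed replicate 2, WT high-fat fasted replicate 2 and MCAD-KO high-fat fasted replicate 1, and Plin4, Plin5, Cidec, Pnpla2 and Mgll in MCAD-KO high-fat fed replicate 4. Acinar pancreas markers stood at 17650.6 CPM in WT high-fat fasted replicate 2, and their part was not tested.

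**Figure D3:**
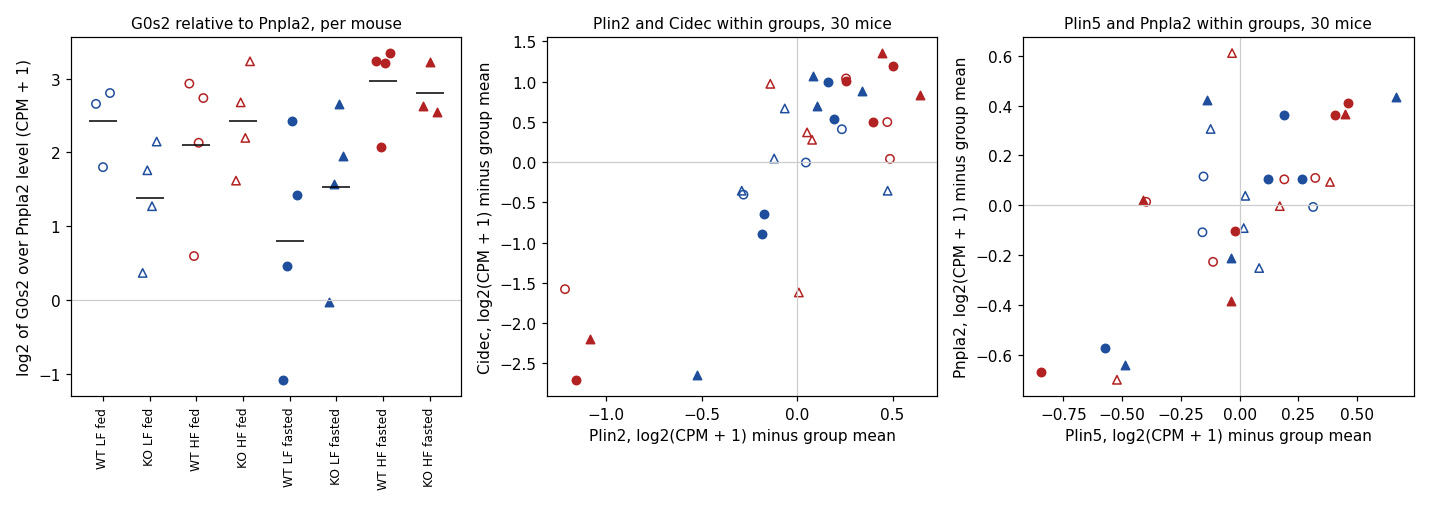
Left, log2 of the G0s2 over the Pnpla2 level (CPM + 1) in each mouse by group, with bars at group means. Middle and right, the level of Cidec against Plin2 and of Pnpla2 against Plin5 in each of 30 mice, as log2(CPM + 1) minus the group mean; symbols as in the plot of levels by group. In the 2 right panels points run from lower left to upper right (r = 0.79 and 0.70).

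The genes whose levels were most like those of each of the 10 over the 30 mice are given as a description, since all genes share the same 8 groups. Plin5 and Pnpla2 were each other's nearest gene (Pearson r = 0.95). Plin2 was nearest to Pank1 (0.93), a pantothenate kinase of coenzyme A synthesis, then Crat and Creb3l3. Plin4 was nearest to Angptl4 (0.89), a secreted inhibitor of lipoprotein lipase, then Slc1a2 and Eci2. Cidec was nearest to Cpt1a (0.94), the entry enzyme of mitochondrial fatty acid oxidation, and Abcb4 was also near (0.92). Mgll was nearest to Acaa1b (0.97), a peroxisomal thiolase, then Decr1 and Pex11a.

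Pnpla3 was nearest to Acly (0.90), then Chrna4 and Fasn, of which Acly and Fasn are enzymes of fatty acid synthesis. G0s2 had looser neighbours, Acot4 (0.78), Inhbe and Paqr9, and Cideb was nearest to Txn-ps1 (0.88), Psmd14 and Tmbim6. Cidea was nearest to Fabp4 (0.71), Cyp21a1 and Adipoq, which are 2 of the adipose markers and 1 of the adrenal cortex markers above. After each other, Plin5 was nearest to Grn and Mat1a, and Pnpla2 to Grn and St3gal5.

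Of 17 other listed genes of the droplet surface and of droplet assembly, 15 could be tested, and 4 rose and 2 fell on fasting on average, where 9.77% of all genes rose and 9.14% fell. Those that rose were Fitm2 (1.2 ± 0.15), which is needed to form droplets, Hsd17b11 (1.10 ± 0.12) and Hsd17b13 (0.63 ± 0.09), droplet-bound dehydrogenases, and Hilpda (0.51 ± 0.17), another inhibitor of the Pnpla2 product. Hilpda was called only in MCAD-KO mice on the low-fat diet (1.36, adjusted p = 0.0033), with 0.89 in MCAD-KO mice on the high-fat diet. In WT mice it was 0.28 on the low-fat and -0.47 on the high-fat diet. A difference between the genotypes in the fasting effect was not called in this list. Plin3 (-0.64 ± 0.10), the perilipin that moves between cytosol and droplets, and the acyl-CoA synthetase gene Acsl3 (-1.2 ± 0.18) fell. On average over feeding states, Fitm1 alone differed between the diets (0.98 ± 0.17 higher on the high-fat diet, against 3.49% of all genes called), and no difference by genotype was called. The fasting effect of Hsd17b13 was lower on the high-fat diet (-0.66 ± 0.18, adjusted p = 0.034), the only such call in this list, against 2.46% of all genes. The median fasting effect of this list was 0.15.

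Of 15 further lipase and cofactor genes, 3 rose and 6 fell on fasting, against 9.77% and 9.14% of all genes. The genes that rose were Abhd6 (0.99 ± 0.12), a monoacylglycerol lipase, Ddhd2 (0.86 ± 0.14) and Pnpla8 (0.39 ± 0.08). Ces1g (-0.68 ± 0.16), Aadac (-0.64 ± 0.11), Ces3b (-0.49 ± 0.10) and Abhd5 (-0.45 ± 0.13) had the largest falls, of which Abhd5 encodes the activator of the Pnpla2 product. Ces3a and Lipc also fell. On the high-fat diet Ces1g was higher (1.07 ± 0.16). No difference by genotype or in the fasting effect between diets was called in this list, and the median fasting effect of the list was -0.13.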

How the data were processed

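The data were whole-number read counts per gene, deposited by the authors for 32 samples without normalization. According to the study's methods and the submitters' processing notes, reads were mapped to GRCm38 with HISAT 0.1.5, sorted with SAMtools 1.2 and counted with HTSeq 0.6.1p1; the strand setting is not given in the sources used here. Symbols and positions came from GENCODE vM21 (19913 of 20076 identifiers) and upstream sequences from RefSeq.

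The counts were tested with edgeR 4.0.16 in R 4.3.3 (TMM, filterByExpr, robust quasi-likelihood fit of the 8 groups, 30 mice, no covariates, Benjamini-Hochberg over 11566 genes). Standard errors are the effect divided by the square root of F. The 95% intervals of log2 effects use a normal quantile of these errors. They are somewhat narrower than the F test implies, and some exclude 0 at an unadjusted p (edgeR) above 0.05. Alternatives used DESeq2 1.42.0, limma 3.58.1 and the settings given below. Ratios and correlations used log2(CPM + 1) and 100000 permutations. Nothing states that mice of a group were independent beyond being separate samples.

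The 10 genes and all lists were chosen with earlier results of these data known. Named are the 10 genes, up to 4 genes per list and direction with the largest called effect, and the 3 genes most like each of the 10, of which 1 is not reported here; Ces3a, Lipc and the mice named for marker levels were added after their values were seen. Groups, replicate numbers and lanes came from the labels. No 2 mice of a group had matching counts (smallest chi-square per gene 3.93).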

Additional observations from a re-analysis of the deposited data

Results flagged for a closer look

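In 60 sets of 4 mice, 1 mouse stood apart from the other three of its group in 7, by a test on its gap to the nearest value that chance meets in about 1 of 20 sets. Plin2 was lowest in WT high-fat fed replicate 2 (94.9 CPM) and in WT high-fat fasted replicate 2 (172 CPM). Cidec was lowest in MCAD-KO low-fat fasted replicate 3 (12.6 CPM). Mgll was lowest in MCAD-KO high-fat fed replicate 4 (311 CPM) and in WT high-fat fasted replicate 2 (458 CPM). Cidea was the only nonzero value of its group in MCAD-KO low-fat fed replicate 4 (0.62 CPM) and in WT low-fat fasted replicate 3 (0.43 CPM), which are levels of at most 2 counts.

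The fasting effect of 4 genes differed between the high-fat and the low-fat diet by the test of the difference itself. On the log2 scale the high-fat minus low-fat difference was -1.88 for Plin5, -4.97 for Cidec, -1.36 for Pnpla2 and -1.21 for Mgll.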

How the results depend on the processing

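Values are counts of the 10 genes called, counts of all genes called, or log2 effects. In the main fits the fasting effect was called for 8 of the 10 genes (2187 of all), the diet effect for 2 (404), genotype for 0 (1), fasting by diet for 4 (285), and fasting for 6 (872) in WT low-fat, 0 (49) in WT high-fat, 8 (1595) in MCAD-KO low-fat and 0 (61) in MCAD-KO high-fat mice. With all 32 mice the diet effect was called for 0 (81), fasting by diet for 1 (22; Plin5), and fasting for 414, 0, 735 and 39 of all genes in the same order; the diet effect was -0.027 for Plin2 and -0.46 for Cidec, fasting by diet -0.229 for Cideb, fasting in WT low-fat 0.125 for Cideb, and the G0s2 to Pnpla2 difference between diets 0.963; 7 pairs of genes were correlated. With 31 mice the values were 27 and 16 of all genes for fasting on the high-fat diet, -0.376 for Cidec by diet and 0.125 for Cideb. With at least 10 counts in every mouse, fasting was called for 5 of the genes, 3 in WT low-fat and 5 in MCAD-KO low-fat mice, since fewer were tested. DESeq2 called 430 genes for fasting by diet, 1 of the 10 (Plin4; 141 of all) in WT high-fat and 144 of all in MCAD-KO high-fat mice. With limma voom Cidec was -0.0184 by diet, and G0s2 0.0392 for fasting by diet; Cidec lost its calls for fasting by diet (adjusted p = 0.32) and for fasting in WT (0.11) and MCAD-KO (0.115) low-fat mice, and Pnpla3 in MCAD-KO low-fat mice (0.0608). Replicate numbers did not pair the mice (98 pairs, median r 0.00646, lowest -0.207); with a replicate block, fasting by diet was called for 3 of the genes, without Cidec (adjusted p = 0.0561), with -0.106 for Cidea and 0.0104 for G0s2, and fasting in MCAD-KO high-fat mice for 30 of all genes, with -0.158 for Cidea. With lane as a term Cidea was -0.239 for fasting by diet. Within lane 7, fasting was called for 4 of the genes (376 of all), diet for 117 of all, and fasting for 0 in WT high-fat, 4 (530) in MCAD-KO low-fat and 0 in MCAD-KO high-fat mice; by diet Plin2 was -0.074, Cidec -0.318 and Mgll -0.106, and by fasting Cidea was -1.22 and -3.05 in the high-fat groups and Cideb 0.00557 in MCAD-KO. Within lane 8, diet was called for Pnpla2 (-0.679) and no longer for Plin5 (adjusted p = 0.116), with Cidea at -0.175 and not called, genotype for 4 of all, and fasting for 1 (86; Cidec) in WT high-fat, 830 of all in MCAD-KO low-fat and 2 (171; Plin2 and Cidec) in MCAD-KO high-fat mice; Cideb, not called, was -0.0428 in WT high-fat and 0.035 in MCAD-KO low-fat mice. Fitted alone, WT high-fat mice gave 1 (85; Plin4) and MCAD-KO low-fat mice 759 of all. Without the 4 mice with adrenal cortex markers, a setting added after seeing the data, Cidea was -0.279 by fasting, Mgll -0.0648 by diet, G0s2 0.339 for fasting by diet, and 6 of all genes were called in WT high-fat mice. Without the 2 mice with acinar pancreas markers, also added, fasting by diet was called for 2 (156), with Cideb -0.00953 and G0s2 0.0274, and fasting in WT high-fat mice for 2 (152; Plin4 and Pnpla2), with Cideb, not called, at -0.0109. Without single mice the ranges were -0.191 to 0.101 for the fasted minus fed G0s2 to Pnpla2 ratio; -0.32 to 1.18 for Cidea by fasting; 1 to 3 genes for diet; 1 to 2 of all genes for genotype; 2 to 4 (170 to 333) for fasting by diet, with G0s2 -0.344 to 0.0937, Cideb -0.0556 to 0.0987, Cidea -0.777 to 1.65 and Pnpla3 -0.246 to 1.73; 541 to 1074 of all genes in WT low-fat (Cideb -0.0585 to 0.053); 0 to 1 (1 to 157) in WT high-fat (Cideb -0.0252 to 0.0929); Cideb -0.288 to 0.0205 in MCAD-KO low-fat; and 4 to 117 of all genes in MCAD-KO high-fat mice (Cidea -2.18 to 2.45). The cause of these changes was not tested. Depth limits Cidea, Pnpla3 and fed Cidec, which had few counts per mouse.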

Other observations

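The 2 mice that were left out had the following levels. In MCAD-KO high-fat fasted replicate 4, with 37688 CPM of heart markers, Plin4 was 198 CPM, Plin5 172 CPM, Pnpla2 421 CPM and Cidea 39.0 CPM, whereas Cideb was 6.72 CPM and Plin2 74.9 CPM. In WT low-fat fed replicate 2, Cidec was 32.1 CPM, against 0.67 to 1.93 CPM in the 3 other mice of its group, and Plin2 was 316 CPM against 176 to 252 CPM.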
